A study of Mus musculus with 48 samples.

Results

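Skin of vehicle-treated C3H/HeJ mice at a late week was compared with vehicle skin at earlier weeks, across 3 routes of giving phosphate-buffered saline (PBS). The comparison took 21 of the series' 48 arrays: every vehicle array of week 13 against the vehicle arrays of weeks 5 and 6, chosen by title and treatment label and not by any measured value. Late skin comprised PBS ip, PBS pump and PBS gavage at week 13 (n = 3 each, 9 arrays). Early skin comprised PBS ip at week 5 (n = 4), PBS pump at week 6 (n = 3) and PBS gavage at week 6 (n = 5), 12 arrays in all. A further array titled PBS ip, week 5, replicate 1 carried a treatment label naming IL15 and was left out.

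All mice were of the strain C3H/HeJ, and the labels give no age, sex or genotype. The series is about preventing mouse alopecia areata with inhibitors of the interleukin-15 (IL-15) pathway. In the model known by that name, skin of an affected mouse is grafted onto a young recipient, whose own skin loses hair over the following weeks; the labels name no graft site and no sampled site, so whether an array holds grafted or host skin is not given in the sources used here. The same weeks were measured under il15rb, jak3i and jak12i, known from the study as an antibody against the IL-15 receptor beta chain, a JAK3 inhibitor and a JAK1/JAK2 inhibitor. Those treated arrays, 13 early and 9 late, serve below as the other side of 1 test. The series describes its replicates as biological, and p-values here measure only how arrays of a group scatter.

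Alopecia areata is an autoimmune attack on the growing hair follicle by CD8 T cells. Hair follicles cycle between rest, in which the stem cells of the bulge are quiet, and growth, in which the matrix divides and makes the inner root sheath and the keratins of the shaft. Cytotoxic T cells near the follicle secrete interferon gamma, which induces class I antigen presentation and the chemokines CXCL9, CXCL10 and CXCL11, and these draw in more T cells. IL-15 sustains such T cells through a receptor that signals by Janus kinases.

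Values are log2 expression signals, and a change is the week 13 mean minus the week 5 or 6 mean in log2 units ± its standard error (SE), with the 3 routes weighted equally. A gene rose or fell where limma's adjusted p was under 0.05 over the 13650 genes tested. A gene was tested where at least 3 arrays lay above 6.7, so one low in early skin could be tested through late arrays alone. Counts of rises in lists that were low in early skin are therefore partly set by this filter. Folds are written "at least" where the lower mean lay under 5.61, the highest 25th percentile of any array. Week cannot be told apart from how the arrays of that week were run or processed. Early arrays were of week 5 for PBS ip and of week 6 for PBS pump and PBS gavage. A route difference that involves ip therefore cannot be told apart from early week. The 75th percentile of an array was 8.169 to 8.64 early and 8.685 to 8.745 late, and the median change over all genes was 0.18 on the deposited values and -0.02 after quantile normalization. A call on 3 scales passed, with 1 sign, on deposited values, on quantile-normalized values and on ranks within an array.

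The labelled tissue held by its markers: Krt10, the main keratin of differentiating epidermis, lay between 14.09 and 14.38 on the early arrays and between 14.06 and 14.36 on the late ones. Of the early arrays PBS gavage replicate 5 stood apart, with a skeletal muscle list mean of 7.36 against 11.83 to 13.39 on the other 11. Late PBS ip replicate 3 and PBS pump replicate 2 were also low in muscle, at 7.22 and 7.43, and late PBS ip replicate 1 lay between at 9.86. Leaving out the 3 lowest arrays is given beside the fat and muscle lists and, for the route counts, near the end.

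In late vehicle skin 7181 genes (52.6%) rose and 3655 (26.8%) fell, so 79.4% of genes were called. After quantile normalization 4938 (36.2%) rose and 5332 (39.1%) fell, and the share of calls that were rises went from 66.3% to 48.1%. On 3 scales 4827 genes (35.4%) rose and 3531 (25.9%) fell. The late and early arrays did not overlap at 1969 higher genes (14.4%) and 663 lower genes (4.86%). The 3 routes share no arrays, and 4137 genes (30.3%) were called in each of them with 1 sign, 3145 rising and 992 falling. These shares are the background for every count that follows.

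Genes of the hair shaft and its sheath had the highest median rises of the 36 gene lists. All 37 tested keratin-associated protein genes, whose products cross-link keratin in the hair shaft, rose, 35 of them on 3 scales, with a median change of 4.30. Krtap13 was measured but did not pass the filter. In early PBS gavage other than replicate 5 the list mean was 5.36 to 5.41, under the filter's 6.7. High arrays elsewhere could thus decide which members were tested, and the count is partly set by that. Of 12 shaft keratins 11 rose, median 3.19, and of 13 inner root sheath genes 12 rose, median 4.62. No member of the 3 lists fell on the deposited values, though 1 inner root sheath gene was lower after quantile normalization and 1 in PBS ip alone, where 21.6% of all genes were lower. The median over all genes was 0.18. Keratin-associated protein genes are near-identical copies of each other in part, so a probe set may read more than 1 of them.

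The keratin-associated protein gene Krtap4-16 had the largest rise among the named genes whose late and early arrays did not overlap. Its values were 5.02, 4.69, 4.63 and 4.85 in early PBS ip, 4.94, 4.75 and 4.78 in early PBS pump, and 4.65, 4.72, 4.57, 4.52 and 7.17 in early PBS gavage. Late values were 12.97, 8.56 and 10.81 for PBS ip, 11.90, 11.07 and 13.31 for PBS pump, and 11.26, 10.40 and 13.05 for PBS gavage. Every late array was above every early array, and the early array at 7.17 was the PBS gavage array that stood apart. The change was 6.56 ± 0.87, at least 94.6-fold (adjusted p = 1.6e-08).

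Other shaft and sheath genes had late values as scattered as these. Krt33a, a cortex keratin, went from an early range of 4.86 to 7.52 to a late range of 8.30 to 13.08, a change of 5.86 ± 0.87 (adjusted p = 1.7e-07). Krt71, a keratin of the inner root sheath, lay at 6.78 to 8.15 early and 8.31 to 13.38 late, a change of 4.69 ± 0.66 (adjusted p = 5.5e-08). Krt31, another shaft keratin, rose by 3.82 ± 0.60, and Krtap8-1 by 6.52 ± 0.97, again without overlap. Krt25 and Tchh, which encode an inner root sheath keratin and trichohyalin, rose by 6.95 ± 1.04 and 4.97 ± 0.80, but their late and early arrays overlapped through 1 early value each of 11.10 and 10.44. Krt84 was the shaft keratin that did not pass (0.39 ± 0.21, adjusted p = 0.085).

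The late arrays varied widely in these genes. The shaft keratin list mean lay between 6.06 and 6.92 in early skin, and late it ran from 7.28 in PBS ip replicate 2 to 11.22 in PBS pump. Its SD was 0.239 over the early and 1.17 over the late arrays. The arrays within a route differed as widely as the routes did. None of the 12 shaft keratins and 37 keratin-associated proteins passed limma's test of a route difference, which 49.2% of all genes passed for ip against pump, 30.2% for ip against gavage and 23.7% for pump against gavage.

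**Figure D1:**
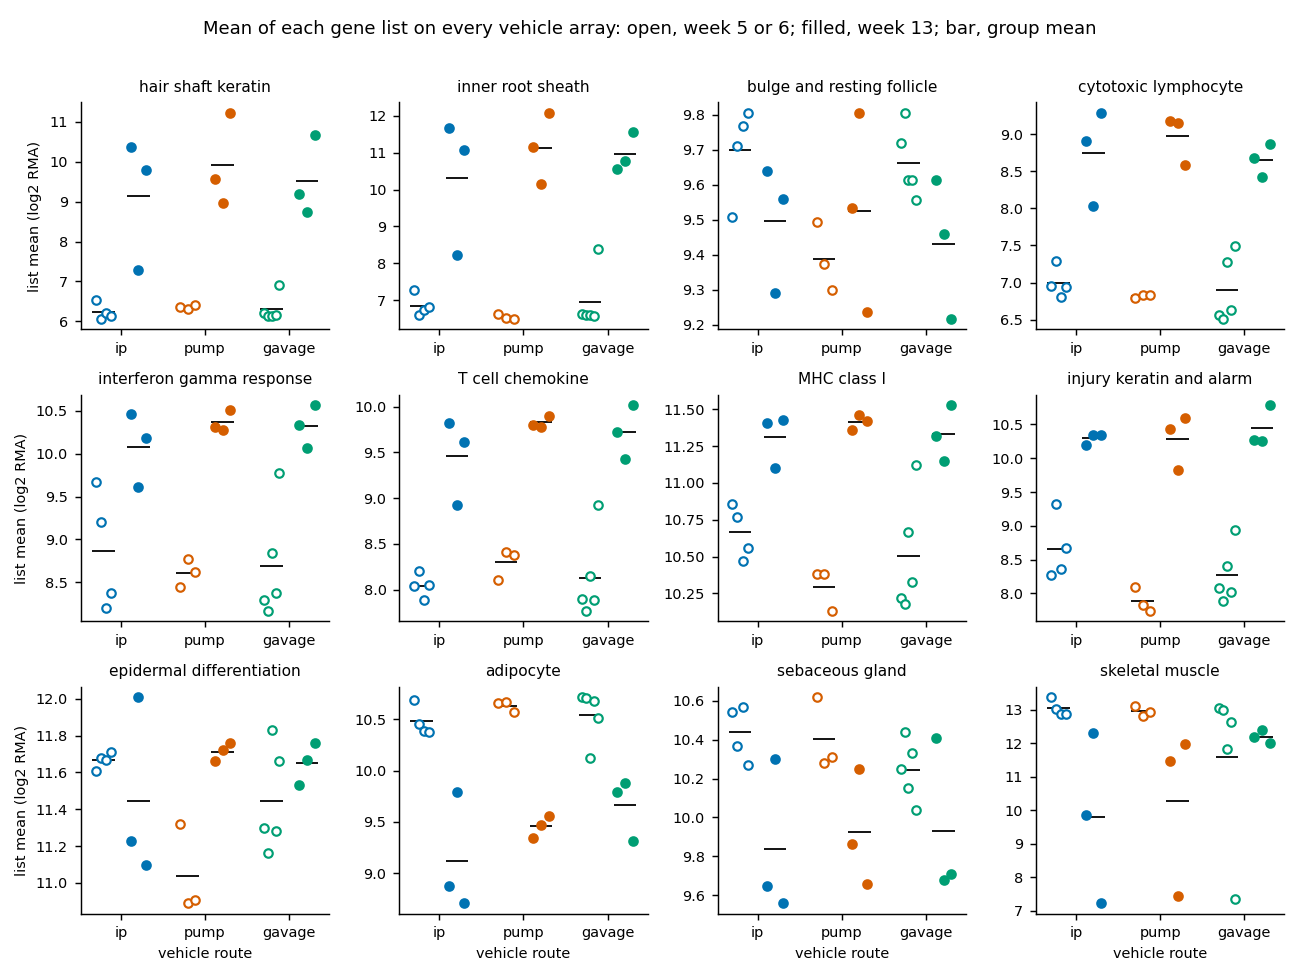
The mean log2 value of 12 gene lists on each of the 21 vehicle arrays, by route, with open points for week 5 or 6, filled points for week 13 and a bar at each group's mean. The shaft keratin list lies between 6.06 and 6.92 on every open point and between 7.28 and 11.22 on the filled ones, while the skeletal muscle list has 1 early array at 7.36 and late arrays at 7.22, 7.43 and 9.86, with the rest at 11.46 or above.

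Transcription factors and signals of the hair matrix rose by less. Of 17 matrix genes 13 rose and none fell on deposited values, 9 rising on 3 scales, median 0.74. After quantile normalization 10 rose and 2 fell, median 0.39. Foxq1, needed for the medulla of the shaft, rose by 1.01 ± 0.09 from 7.44 to 8.16 early to 8.59 to 9.04 late. Hoxc13, an activator of shaft keratin genes, rose by 1.85 ± 0.24, and Msx2 by 0.99 ± 0.20, both with overlap.

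Genes of the bulge and of resting follicles split. Of 16 tested, 7 rose and 6 fell, and on 3 scales 5 rose and 6 fell, median -0.05. Fgf18, the growth factor that holds follicles at rest, was 9.59, 8.97, 9.82 and 9.80 in early PBS ip, 8.59, 8.11 and 8.09 in early PBS pump, and 9.59, 10.03, 8.33, 9.13 and 8.14 in early PBS gavage. Late it was 6.42, 6.10 and 6.22, then 6.52, 8.0 and 5.69, then 7.35, 6.25 and 5.68 in the same order of routes. All late arrays lay below all early ones, and the gap was narrow at the pump array of 8.0. The change was -2.48 ± 0.28, 5.58-fold lower (adjusted p = 3.6e-10).

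Other members that fell did so by smaller amounts. Krt15, a keratin of bulge stem cells, fell by 0.87 on the log2 scale (SE 0.10), Cd34 by 0.76 (SE 0.14) and Lgr6, a marker of stem cells above the bulge, by 0.87 (SE 0.13), each with overlapping arrays. Krt24, which is no member of that list, fell by 2.09 (SE 0.19), from 8.13 to 9.92 early to 6.27 to 7.78 late. Lgr5, a marker of the lower bulge and of growing follicles, went the other way at 1.02 ± 0.13 without overlap, though a second probe set for it changed by -0.03.

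Cytotoxic lymphocyte genes rose together: all 13 tested did so, on 3 scales, with a median of 1.5, and 7 of them had no overlap between late and early arrays. Gzmk, Fasl, Eomes and Tbx21 were measured but did not pass the filter on low values, so no count here includes them. Fewer cells of a type and less RNA per cell cannot be told apart here, nor can more cells and more RNA. Gzma, which encodes granzyme A of killer cell granules, was 5.30, 5.29, 4.97 and 5.16 in early PBS ip, 5.05, 5.52 and 6.08 in early PBS pump, and 5.04, 4.95, 5.37, 4.97 and 7.33 in early PBS gavage. Late it was 10.20, 8.13 and 10.97 in PBS ip, 11.77, 10.32 and 10.01 in PBS pump, and 9.92, 9.10 and 10.07 in PBS gavage. No late array came near an early one, and the highest early value was again PBS gavage replicate 5. Every other early vehicle array lay under the filter's 6.7, which the late vehicle arrays met by themselves. The change was 4.63 ± 0.25, at least 24.8-fold (adjusted p = 7.5e-18).

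Gzmb, granzyme B, lay at 6.26 to 7.67 early and 8.07 to 11.29 late, a change of 3.47 ± 0.22 (adjusted p = 2.9e-16). Ccl5, a chemokine released by activated T cells, rose by 3.26 ± 0.28 from a median of 7.63 to one of 11.04. The natural killer receptor genes Klrd1 (CD94) and Klrk1 (NKG2D) rose by 2.21 ± 0.15 and 1.62 ± 0.14. NKG2D marks the killer T cells described in this disease, and neither gene's late and early arrays overlapped. Ctsw, a cathepsin of killer cells, rose by 1.58 ± 0.12. Prf1, perforin, rose by 1.08 ± 0.11, but its 2 probe sets disagreed, the other one at -0.04.

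The T cell receptor list was mixed, with 9 of 14 genes higher and 2 lower, median 0.39. After quantile normalization 8 were higher and 5 lower. Cd8b1 rose by 1.47 ± 0.12, from 5.54 to 6.41 early to 6.50 to 8.31 late without overlap, and Cd8a by 0.84 ± 0.11 with overlap, its 5 probe sets spanning 0.11 to 2.88. Of the CD3 chains, Cd3d and Cd3g rose by 0.87 ± 0.13 and 0.98 ± 0.14, while Cd3e passed on the deposited values at 0.19 ± 0.08 but stood at -0.12 after quantile normalization. Its call was also lost without late PBS ip replicate 3, late PBS pump replicate 1 or early PBS ip replicate 3, at changes of 0.13, 0.15 and 0.16. Skap1, an adaptor of T cell adhesion, fell by 0.96 (SE 0.11), with another probe set at 0.56.

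Genes of resident and checkpoint-bearing T cells rose at 10 of 11, on 3 scales, median 0.91. Cxcr6, a receptor of tissue-resident T cells, rose by 2.45 ± 0.19, from 6.28 to 8.37 early to 8.92 to 10.23 late. Havcr2 (TIM-3), an inhibitory receptor, rose by 1.30 ± 0.10, also without overlap. The ligands of PD-1, Cd274 and Pdcd1lg2, rose by 1.64 ± 0.17 and 1.26 ± 0.11, and the receptor gene Pdcd1 by 0.68 ± 0.11. Itgae, the CD103 integrin that binds T cells to epithelium, rose by 1.2 ± 0.15 with overlap.

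Of 15 common gamma chain and JAK-STAT genes 12 rose and 1 fell, 9 and 1 on 3 scales, median 0.52. Il2rb, the beta chain shared by the IL-2 and IL-15 receptors, rose by 0.91 ± 0.08 without overlap, but its second probe set was at -0.17. Il15 rose by 0.51 ± 0.09 over all routes, and Il15ra, the chain that presents it, by 0.66 ± 0.06. By route the Il15 change was -0.42 for PBS ip, 1.12 for PBS pump and 0.83 for PBS gavage. Socs1, an inhibitor of Janus kinases that interferon gamma induces, rose by 1.02 ± 0.09, from 5.29 to 5.96 early to 6.10 to 7.34 late. Il21r fell by 0.48 (SE 0.08).

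Interferon gamma itself was near the bottom of the scale. Ifng lay at 4.57 to 5.27 early and 5.62 to 7.19 late, a change of 1.70 ± 0.14, at least 3.25-fold (adjusted p = 2.5e-13). Of 20 tested genes of its response list 18 rose and 1 fell, 17 and 1 on 3 scales, median 1.37. Ubd, the ubiquitin-like protein FAT10, had the largest rise of the list. Its values were 6.65, 6.42, 5.78 and 5.64 in early PBS ip, 6.06, 5.95 and 5.95 in early PBS pump, and 5.52, 5.48, 6.39, 5.43 and 8.74 in early PBS gavage.

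Late Ubd was 11.62, 9.45 and 11.22 in PBS ip, 11.39, 11.45 and 10.87 in PBS pump, and 10.87, 9.65 and 11.42 in PBS gavage. The groups did not overlap, and the highest early value was again PBS gavage replicate 5. The change was 4.74 ± 0.29, 26.8-fold (adjusted p = 1.3e-16). Gbp8, a guanylate-binding protein of cell-autonomous defence, rose by 3.92 ± 0.35, Igtp, an immunity-related GTPase, by 2.27 ± 0.34, and the transcription factor gene Irf1 by 1.35 ± 0.13. All 3 overlapped between late and early arrays.

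Early skin had 3 arrays with a response list mean of 9.20 or more, namely PBS gavage replicate 5 at 9.77 and PBS ip replicates 2 and 3 at 9.67 and 9.20. Late arrays lay between 9.61 and 10.57. Batf2 passed on the deposited values at 0.30 ± 0.10 and not after quantile normalization (0.04, adjusted p = 0.73).

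T cell chemokines rose at 10 of 13, on 3 scales, with none lower and a median of 1.21. Cxcl9 lay at 6.97 to 11.06 early, median 8.15, and at 11.28 to 13.08 late, median 12.91, so the groups were separated by a narrow gap. Its change was 4.27 ± 0.40, 19.3-fold (adjusted p = 6.1e-12). Cxcl11 rose by 3.57 ± 0.25 without overlap and Cxcl10 by 3.12 ± 0.26 with overlap at the late PBS ip replicate 2, which was the lowest late array. Ccl2, which attracts monocytes, rose by 1.64 ± 0.18, and Ccl17, which attracts CCR4-bearing T cells, by 1.34 ± 0.19. Cxcl16, the ligand of CXCR6, rose by 1.21 ± 0.08 without overlap.

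The promoters of Ubd, Cxcl10 and Cxcl9, the members of these 2 lists with a promoter on file whose late change differed most between vehicle and treated skin, are shown because they could carry the DNA motifs that interferon signalling uses. Sequences are the 250 bases before the RefSeq start site on GRCm38.p6, from chr17:37193642-37193891 on the plus strand, chr5:92348890-92349139 on the minus strand and chr5:92328080-92328329 on the minus strand. Capitals mark a match to the core of the interferon-stimulated response element.
Ubd: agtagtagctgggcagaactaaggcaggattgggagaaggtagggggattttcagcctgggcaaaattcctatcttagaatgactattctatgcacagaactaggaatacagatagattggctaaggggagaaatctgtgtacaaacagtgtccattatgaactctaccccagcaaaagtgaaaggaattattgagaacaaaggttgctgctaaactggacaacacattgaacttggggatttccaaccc
Cxcl10: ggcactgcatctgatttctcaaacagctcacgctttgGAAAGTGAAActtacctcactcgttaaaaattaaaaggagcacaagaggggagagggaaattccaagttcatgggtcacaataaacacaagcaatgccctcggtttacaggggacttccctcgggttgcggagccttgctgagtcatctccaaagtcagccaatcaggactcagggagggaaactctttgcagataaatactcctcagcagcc
Cxcl9: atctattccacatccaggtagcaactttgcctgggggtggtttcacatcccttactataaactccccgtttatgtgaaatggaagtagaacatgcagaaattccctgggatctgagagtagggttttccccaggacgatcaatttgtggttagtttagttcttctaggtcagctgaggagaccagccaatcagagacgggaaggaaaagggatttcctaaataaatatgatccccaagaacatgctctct

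The gamma-activated site was searched as TTCNNNGAA, which reads the same on both strands, and the response element core as GAAA followed, after any 2 bases, by a second GAAA on either strand. Cxcl10 held 1 core match, beginning 213 bases before the start, and the other two windows held neither motif. Of all 32851 promoters of this length 7.02% held the first motif and 2.98% the second. A promoter was on file for 21 of the 33 tested members of both lists, of which 7 held the first motif and 7 the second in at least 1 promoter. These are counts of genes, some with more than 1 promoter, while the shares above are of promoters, so they are not like for like. A match is a description of letters and not a measured site.

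Genes of the type I interferon response rose at 22 of 24 with 1 lower, on 3 scales, median 1.27, and 9 did not overlap. Stat2, a signalling factor of that response, lay at 6.27 to 7.26 early and 7.79 to 9.53 late, a change of 2.05 ± 0.13 (adjusted p = 2.1e-16). Bst2, the antiviral protein tetherin, rose by 1.47 ± 0.15, also without overlap. Ifit1, which binds foreign RNA, rose by 2.38 ± 0.26 and Ifit2 by 1.14 ± 0.18, both with overlap.

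Class I antigen presentation rose at 13 of 14 genes, 12 on 3 scales, median 1.0, with 6 not overlapping. Tap2, a subunit of the transporter that loads peptides, rose by 1.31 ± 0.09 from 9.05 to 10.05 early to 10.27 to 11.01 late. Nlrc5, the transactivator of class I genes, rose by 1.10 ± 0.11. H2-K1, a class I heavy chain, rose by 1.08 ± 0.09 on the probe set used, but its 4 probe sets ran from -0.30 to 1.08. B2m, the light chain, was near the top of the scale at 13.87 to 14.19 early and 13.89 to 14.07 late, and did not pass (0.03 ± 0.04, adjusted p = 0.43). Class II genes rose at 6 of 10, 3 on 3 scales, median 0.25, among them H2-Aa at 0.24 ± 0.06. These counts were near the shares of all genes, 52.6% and 35.4%, and the median over all genes was 0.18.

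Myeloid lists were mixed. Of 20 macrophage genes 8 rose and 3 fell, median 0.18, and of 12 dendritic and Langerhans cell genes 5 rose and 3 fell, median 0.08. Cd163, a scavenger receptor of resident macrophages, fell from 9.70 to 11.19 early to 8.04 to 9.64 late, a change of -1.5 ± 0.18 without overlap. Cd209a, a lectin of dermal dendritic cells, fell by 1.17 (SE 0.16) with overlap. Fcgr4, an activating antibody receptor, rose by 1.95 ± 0.19 with overlap, and Itgax, the CD11c integrin, by 1.28 ± 0.11 without. Of 10 neutrophil genes 5 rose and 1 fell. S100a9, an alarm protein of neutrophils and stressed keratinocytes, rose by 1.58 ± 0.19. B and plasma cell genes rose at 3 and fell at 2 of 6. Mast cell genes rose at 2 and fell at 2 of 8, and after quantile normalization 1 rose and 5 fell.

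The macrophage and mast cell tallies hid opposite routes. The macrophage median was 0.45 for PBS ip, -0.38 for PBS pump and 0.70 for PBS gavage, and the mast cell median 0.34, -0.83 and 0.34. Of 8 mast cell genes 7 had a higher change in ip than in pump, where 14.4% of all genes did. In pump against gavage 6 of the 8, and 10 of 20 macrophage genes, were lower, where 6.37% of all genes were.

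Keratins and alarm proteins of injured epidermis rose at 15 of 16 genes with 1 lower, on 3 scales, median 2.05. Krt16, induced in stressed epidermis and present in the follicle, lay at 7.41 to 9.50 early, median 7.89, and at 11.08 to 12.22 late, median 11.70. Its groups did not overlap, and the change was 3.58 ± 0.34, 12-fold (adjusted p = 5.9e-12). Its partner Krt6a rose by 1.96 ± 0.25 and Krt17 by 1.2 ± 0.13, both with overlap. Il1f6, an interleukin-36 cytokine of keratinocytes, rose by 2.26 ± 0.25, and the protease inhibitor gene Slpi by 1.75 ± 0.15, both without overlap. Il33, a nuclear alarm cytokine, was the member that fell, by 0.61 (SE 0.11). Krt6a, Krt16 and Krt17 are also made in the follicle, whose own keratins rose in the same arrays, and the part of follicle RNA in this list was not tested.

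Genes of normal epidermal differentiation did not move together: 8 of 23 rose and 4 fell, median 0.00. Krt10 stood at 0.00 ± 0.04 and Lor, loricrin of the cornified envelope, at -0.13 ± 0.07 (adjusted p = 0.072), and neither passed. Klk7, a protease of desquamation, rose by 0.96 ± 0.09 from 11.93 to 12.95 early to 13.09 to 13.68 late.

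Fat cell genes fell at 14 of 15 with none higher, on 3 scales, median -0.92, and 3 did not overlap. Adipoq, the hormone adiponectin made by fat cells, was 12.80, 12.40, 12.22 and 12.64 in early PBS ip, 12.92, 13.05 and 13.03 in early PBS pump, and 13.21, 12.88, 12.59, 13.09 and 13.01 in early PBS gavage. Late it was 9.69, 11.15 and 9.76 in PBS ip, 10.63, 10.92 and 10.94 in PBS pump, and 10.90, 11.26 and 10.47 in PBS gavage. All late arrays lay below all early ones, and 2 of the late PBS ip arrays were lowest. The change was -2.19 ± 0.15, 4.55-fold lower (adjusted p = 1e-15).

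Thrsp, a regulator of fat synthesis, fell by 2.25 (SE 0.40) and Pck1, an enzyme of glycerol supply, by 1.85 (SE 0.21), though other probe sets of each changed by as little as -0.24 and -0.01. Retn, the hormone resistin, fell by 1.62 (SE 0.16), Cidec, which coats lipid droplets, by 1.58 (SE 0.16), and the fatty acid carrier Fabp4 by 1.08 (SE 0.06). Without the 3 arrays lowest in muscle the list median was -0.85. Sebaceous gland genes fell at 8 of 12 and rose at 1, 7 falling on 3 scales, median -0.43. Cidea and Pparg are members of both this list and the fat cell list, so the lists are not separate. Scd3, a desaturase of sebocytes, fell by 1.89 (SE 0.30) and Fa2h, which hydroxylates fatty acids, by 0.94 (SE 0.16).

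Skeletal muscle genes, which would come from muscle under the skin, fell at all 20, but at 10 on 3 scales, and this rested on few arrays. The list mean was 7.22, 9.86 and 12.32 in late PBS ip and 7.43, 11.46 and 11.97 in late PBS pump, in order of size. It was 12.00 to 12.41 in late PBS gavage. In early PBS gavage it was 7.36 in replicate 5 and 11.83 to 13.05 in the others. The gavage change given next includes that low early array. The median change was -3.24 for PBS ip, -2.58 for PBS pump and 0.69 for PBS gavage, and over the routes it was -1.23 without the 3 lowest arrays, a value that keeps the PBS ip array at 9.86. Ckm, muscle creatine kinase, ran from 7.56 to 13.78 early and from 7.16 to 12.73 late.

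Connective tissue lists differed by route, which for ip cannot be told apart from early week. Of 34 dermal matrix genes 13 rose and 2 fell over the 3 routes, but the median was 0.72 for PBS ip, -0.58 for PBS pump and 0.42 for PBS gavage. The test of ip against pump called 23 of the 34 higher in ip and none lower, where 14.4% of all genes were higher. In pump against gavage 12 were lower and none higher, where 6.37% of all genes were lower. Col3a1, a main dermal collagen, stood at -0.12 ± 0.11 and did not pass. Tnc, tenascin of remodelling tissue, rose by 3.03 ± 0.25 and the collagenase gene Mmp13 by 3.69 ± 0.36, at least 12.9-fold, both without overlap. Timp1, an inhibitor of such enzymes, rose by 2.36 ± 0.26.

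Of 11 endothelial genes 2 rose and 2 fell, median -0.12, but after quantile normalization 1 rose and 8 fell, median -0.43. The route medians were 0.18 for PBS ip, -0.54 for PBS pump and 0.13 for PBS gavage. Flt1, a receptor of vascular endothelial growth factor, rose by 2.04 ± 0.08, from 7.49 to 8.27 early to 9.76 to 10.51 late, while Emcn, an endothelial surface protein, stood at -0.12 ± 0.12. Nerve and Schwann cell genes rose at 2 and fell at 4 of 6, median -0.40. Epidermal genes differed by route in the other sense to the matrix: 17 of 23 were lower in ip than in pump, where 34.9% of all genes were, and none higher. The split of all route calls moved with the scale, since 29.2% of the ip against pump calls were higher on deposited values and 54.1% after quantile normalization. For ip against gavage these shares were 29% and 57.3%, and for pump against gavage 73.1% and 58.6%.

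**Figure D2:**
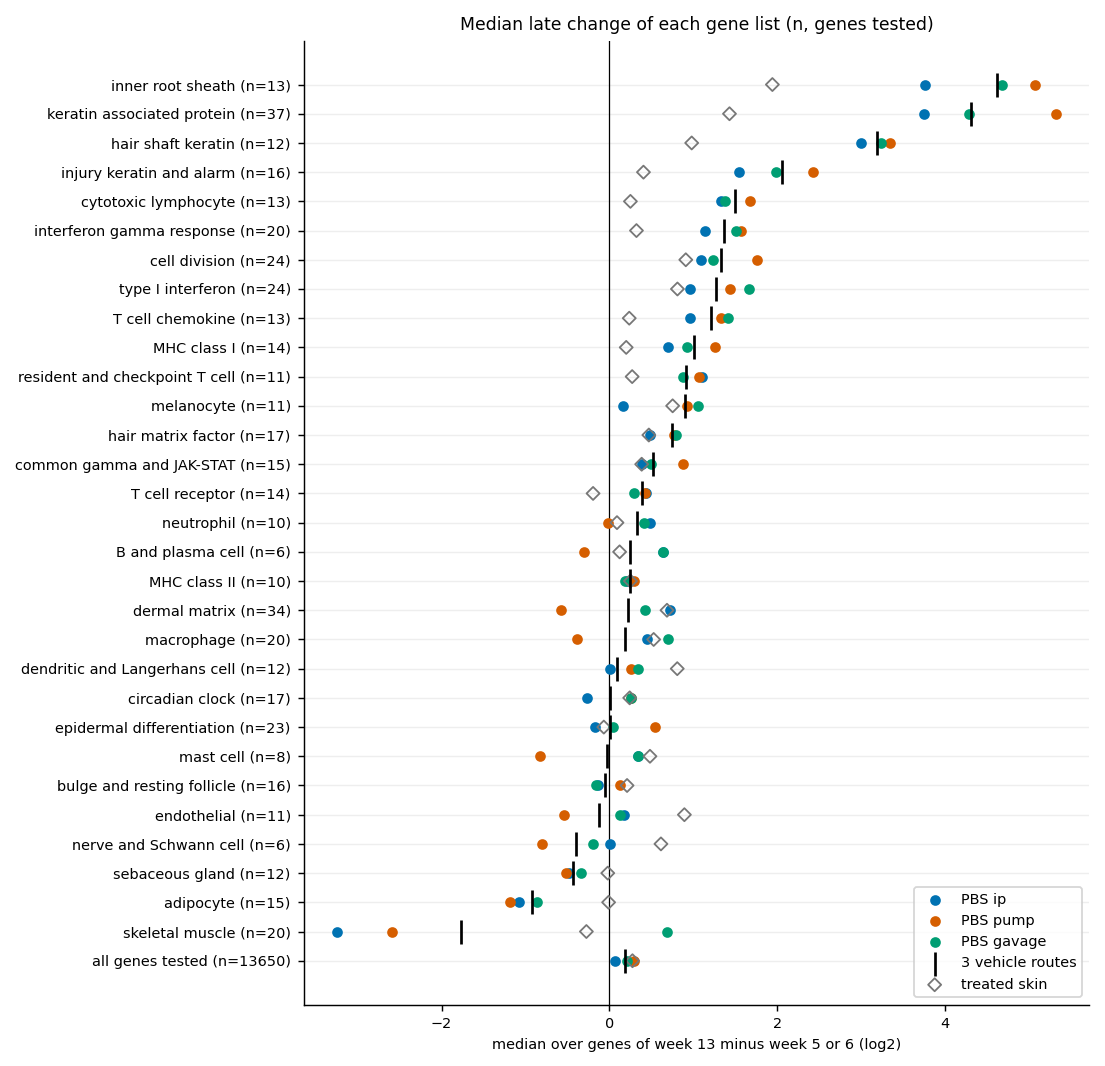
The median late minus early change (log2) of each gene list for PBS ip, PBS pump and PBS gavage and over the 3 routes, with diamonds for the treated arrays. The hair lists reach 3.19 to 4.62 and the adipocyte list -0.92 in vehicle skin, while the dermal matrix list lies at 0.72 for PBS ip and -0.58 for PBS pump.

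Genes of cell division rose at 23 of 24 with 1 lower, on 3 scales, median 1.33, and 14 did not overlap. Birc5, survivin of the dividing cell, lay at 6.89 to 8.52 early and 8.90 to 10.01 late, a change of 1.89 ± 0.18. Mki67, the proliferation marker Ki-67, rose by 1.53 ± 0.18 with overlap. Pigment cell genes rose at 6 and fell at 1 of 11, near the share of all genes, with a median of 0.90 that was 0.58 without late PBS pump replicate 3. Mlana, a melanosome protein, rose by 1.94 ± 0.40, with late arrays scattered from 5.84 to 10.41.

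The same weeks in treated skin give a comparison in which an offset common to all week 13 arrays cancels. In treated skin 8235 genes (60.3%) rose and 2509 (18.4%) fell, and 76.6% of those calls were rises on deposited values against 53% after quantile normalization. The late change was higher in vehicle than in treated skin at 1814 genes (13.3%) and lower at 3020 (22.1%). The higher share of these calls was 37.5% on deposited values and 50% after quantile normalization, and the median difference over all genes was -0.03.

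For cytotoxic genes the late change was higher in vehicle at 12 of the 13 tested, with a median difference of 1.14. That count too is partly set by the filter. The list mean was 6.23 to 6.59 on the 13 early treated arrays and 6.39 to 7.08 on the 9 late ones, against 8.03 to 9.29 in late vehicle skin. Gzma stayed between 4.72 and 5.63 on the late treated arrays, and the difference was 4.47 ± 0.35 (adjusted p = 1.9e-11). For Gzmb it was 3.69 ± 0.31, for Ccl5 3.01 ± 0.39 and for Klrk1 1.57 ± 0.20.

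In treated skin the CD8 genes fell, Cd8a by 1.28 on the log2 scale and Cd8b1 by 0.51, and the differences were 2.12 ± 0.15 (adjusted p = 2.4e-12) and 1.99 ± 0.17. Il2rb differed by 1.15 ± 0.11. Il15 and Il15ra rose in treated skin as well, by 0.76 and 0.52, and their differences did not pass (-0.25 ± 0.13 and 0.14 ± 0.09). Of 15 genes around this receptor and its kinases 3 had a higher and 3 a lower change in vehicle.

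Interferon gamma response genes were higher in vehicle at 13 of 20 and lower at 1, median 1.10, and T cell chemokines at 10 of 13 with 1 lower, median 1.14. Ubd had a change of -0.33 in treated skin (adjusted p = 0.29) and the difference was 5.07 ± 0.41 (adjusted p = 2.5e-11). Cxcl10 and Cxcl11 differed by 3.21 ± 0.36 and 3.29 ± 0.35. Cxcl9 rose in treated skin too, by 1.38, and differed by 2.89 ± 0.56. Ifng differed by 1.90 ± 0.20. The interferon gamma list had a median difference of 0.24 among the week 5 groups and 1.51 among the week 6 groups. Those groups differ in agent and route as well as week, which cannot be told apart. All 14 class I genes were higher in vehicle, median 0.68, B2m included at 0.24 ± 0.05.

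Type I interferon genes rose in both arms, with 21 of 24 higher in treated skin, and the difference passed at 9, median 0.35. That median was -0.09 among the week 5 groups and 0.69 among the week 6 groups, which again differ in agent and route too. Ifit1 rose by 2.04 in treated skin and Ifit2 by 1.49, and neither difference passed (adjusted p = 0.49 and 0.29). Cell division genes also rose in both arms, 20 of 24 in treated skin, and the difference passed at 10, median 0.44.

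Hair genes rose in part of the treated arrays. The shaft keratin list mean was 6.24 to 10.34 on early and 6.07 to 10.61 on late treated arrays, with the median late change 1.02 for il15rb, 3.43 for jak3i and -1.59 for jak12i. Replicates 2 and 3 of week 6 jak12i were high early arrays, at 12.48 and 12.33 for Krtap4-16. The difference from vehicle was higher at 10 of 12 shaft keratins, median 2.23, and 31 of 37 keratin-associated proteins, median 3.35. Without those 2 arrays the medians were 1.68 and 2.38. The difference was 4.32 ± 1.22 for Krtap4-16 (adjusted p = 0.0059) and 2.74 ± 0.92 for Krt71 (adjusted p = 0.02).

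Falls in vehicle skin differed in how they stood beside treated skin. Of the 3531 genes that fell on 3 scales, 2085 were also called lower in treated skin, where 2509 (18.4%) of all genes tested were. Iapp, the pancreatic islet peptide amylin, had the largest fall among the named genes without overlap, from 8.46 to 9.92 early to 5.41 to 6.24 late, a change of -3.60 ± 0.13 (adjusted p = 1.4e-22). It fell by 3.87 in treated skin, and the difference did not pass (0.26 ± 0.18, adjusted p = 0.26). Svs5, a seminal vesicle protein, changed by -2.31 in vehicle and -2.32 in treated skin, and Bhmt2, a methyltransferase, by -2.15 and -2.44. Other probe sets of these 3 genes changed by as little as -0.04, -0.06 and 0.21. Skap1 and Il21r fell further in treated skin, by 1.74 and 1.11, with differences of 0.77 ± 0.16 and 0.63 ± 0.12. No skeletal muscle gene was called in treated skin or in the difference, where the list median was -1.49.

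Adipoq, Fgf18 and the genes that follow had a lower late change in vehicle than in treated skin, which need not mean a fall in both. Adipoq differed by -1.92 ± 0.20 (adjusted p = 9.2e-09), and 13 of 15 fat cell genes had a lower change in vehicle. Fgf18 differed by -2.22 ± 0.39 and Krt24 by -2.47 ± 0.26, and Krt15 and Cd34 by -0.89 ± 0.14 and -1.23 ± 0.20. Igfbp3, which binds insulin-like growth factors, fell by 1.91 (SE 0.15) in vehicle and differed by -1.60 ± 0.21. Ces1d, a carboxylesterase of fat, fell by 2.10 (SE 0.18) and differed by -1.51 ± 0.25.

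Several lists that were mixed in vehicle skin had mostly rises in treated skin. Over all genes 22.1% had a lower late change in vehicle, and in treated skin 8235 (60.3%) rose, or 4790 after quantile normalization. All 11 endothelial genes rose there, median 0.89, and the late change was lower in vehicle at 9, with Emcn at -1.41 ± 0.16. Of 34 dermal matrix genes 32 rose in treated skin, median 0.69, and 16 were lower in vehicle and 4 higher. Macrophage genes rose at 15 of 20 and were lower in vehicle at 8, or 6 after quantile normalization. Dendritic cell genes rose at 9 of 12 and were lower in vehicle at 8, or 5 after quantile normalization. Cd209a rose by 1.03 in treated skin and differed by -2.20 ± 0.22. Injury keratins and alarm genes were higher in vehicle at 13 of 16, median 1.86, with Krt16 at 3.00 ± 0.47.

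**Figure D3:**
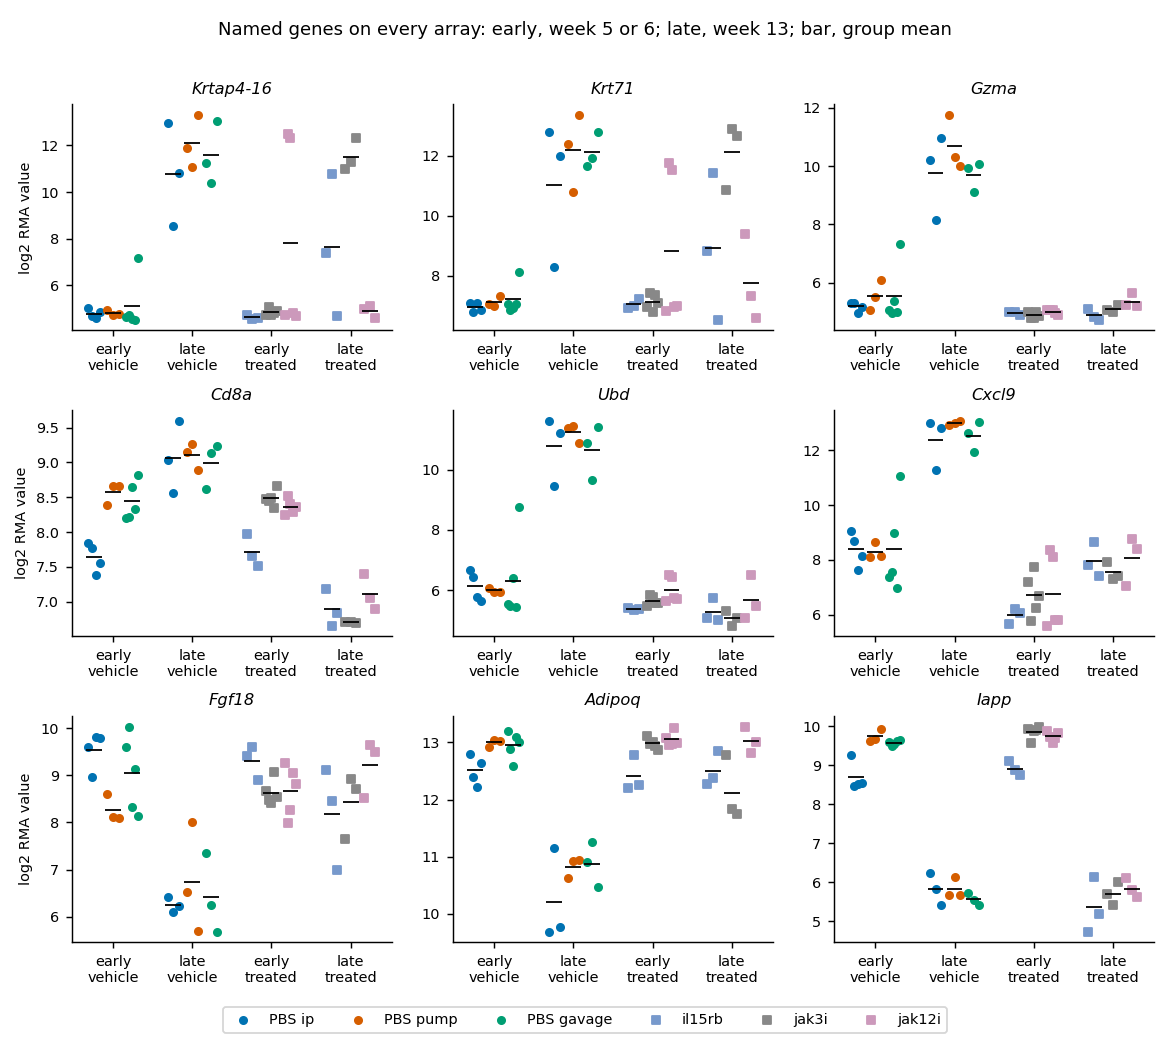
Log2 values of 9 genes on each early and late vehicle and treated array, with a bar at each group's mean. Late vehicle arrays hold Gzma at 8.13 to 11.77 while late treated arrays hold it at 4.72 to 5.63, and Iapp is low on the late arrays of both.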

How the data were processed

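RNA from skin was measured on 48 single-colour Affymetrix arrays after biotin labelling, per the labels' protocols. The authors deposited log2 expression values per probe set, and the submitters' processing notes name RMA, whose version is not given in the sources used here. Of 45101 probe sets 34958 named 1 gene, 932 several and 9211 none in the platform annotation, and probe sets of several genes were left unnamed. Each of 18194 genes took the probe set of highest mean, and 13650 passed a filter of at least 3 arrays above the table median of 6.7. One model over 47 arrays in 13 groups was fitted with limma 3.58.1 in R 4.3.3, with Benjamini-Hochberg adjustment over all genes tested and an adjusted p under 0.05 as the call. The script was tested on simulated data. Quantile normalization, within-array ranks, other filters, only the groups compared, the replicate number as a block and leaving out each array were tried as alternatives.

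Replicate numbers did not pair arrays: deviations of 8 same-numbered pairs correlated between -0.255 and 0.219. Correlation between arrays of a vehicle group was 0.925 to 0.995. Arrays give no read depth, and their number limits the precision. The gene lists and members were chosen with earlier results of these data known. Named genes were the first 2 tested members of each list, up to 4 more members of smallest p in each of the 2 main tests, and the largest changes. Other genes named were chosen after their values were seen.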

Additional observations from a re-analysis of the deposited data

Results flagged for a closer look

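Among 72 sets of list means, taken from early PBS ip and early PBS gavage only, 5 had 1 array far from the rest. Late, pump and treated groups were not searched. Chance gives about 1 in 20 for a single set, but the lists share arrays, so the 72 sets are not independent and the 2 rates cannot be compared. The keratin-associated protein mean of early PBS ip replicate 2 was 6.444. Early PBS gavage replicate 5 stood apart in shaft keratins (6.918), keratin-associated proteins (6.924), inner root sheath (8.388) and skeletal muscle (7.357).

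The late change differed between routes at 6720 genes for ip against pump, 4117 for ip against gavage and 3231 for pump against gavage. It was higher in vehicle than in treated skin at 1814 genes and lower at 3020.

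Week 5 sham replicate 4 was in no group compared here, though it entered the model's shared estimate of spread, on which the SEs rest. It had a shaft keratin mean of 9.986 and an inner root sheath mean of 10.88. The other sham arrays were at 6.059 to 6.258 and 6.566 to 6.895. The highest early vehicle arrays were at 6.918 and 8.388.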

How the results depend on the processing

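With the filter removed 6003 genes fell in vehicle skin and 5258 in treated skin. Treated rises numbered 4790 after quantile normalization and 4742 on ranks, and treated falls 4256 and 4112. Week 5 groups alone gave 555 higher and 898 lower differences from treated skin, and week 6 groups 1129 higher. Fitted with only the groups compared, pump against gavage called 1875 genes. Without the 3 arrays lowest in muscle, calls for ip went from 7238 to 5924. Those for ip against gavage went from 4117 to 3166, and for pump against gavage from 3231 to 2178. Cd3e turned to -0.125 after quantile normalization and -1.649 percentile points on ranks, and the type I interferon median difference to -0.0927 in the week 5 groups. The cause of these shifts was not tested.

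Leaving out 1 array at a time gave 7040 to 7187 rises and 3504 to 3752 falls in vehicle skin, and 4686 to 4833 and 3364 to 3631 on 3 scales. By route it gave 5711 to 7245 calls for ip, 9184 to 9545 for pump and 8207 to 8773 for gavage. Treated skin gave 8090 to 8228 and 2442 to 2523, and the difference 1565 to 2060 higher and 2677 to 3293 lower. Route pairs gave 5645 to 6820 (ip, pump), 3368 to 4395 (ip, gavage) and 2047 to 3587 (pump, gavage), the lowest without early PBS pump replicate 3. Of 127 named genes called in vehicle skin 8 lost the call without some 1 array, and of 108 called in the difference 9 did. With the replicate block 7161 genes rose and 3584 fell, and the difference was higher at 1816 and lower at 3000. Leaving out jak12i replicates 2 and 3 of week 6, and early PBS gavage replicate 5, was chosen after seeing the data. The 3 arrays lowest in muscle were likewise picked by their measured values.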

Other observations

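The array titled PBS ip, week 5, replicate 1, whose treatment label names IL15, had a cytotoxic list mean of 6.265, an interferon gamma response mean of 7.978 and a shaft keratin mean of 6.24.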
